A study of Mus musculus with 12 samples.

Results

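The 40 genes described here are genes of DNA replication and cell division: 12 that act in S phase, 25 that act in G2 and mitosis, and 3 chromatin and nuclear structure genes of proliferating cells that belong to no single phase. They were taken by name from a list of S phase and mitosis genes, after the Ensembl identifiers of the count tables had been matched to gene symbols, and all 40 were found among the 46603 genes counted. The RNA came from blood and spleen of C57/Bl6 mice aged 8 months that lack nuclear myosin 1 (KO) or carry it (WT); nuclear myosin 1 is a form of the motor protein encoded by Myo1c that is found in the nucleus. Each of the 4 groups (KO blood, KO spleen, WT blood and WT spleen) had 3 libraries, made from total RNA of submandibular vein blood or of a small piece of the spleen tip. The labels do not say that each library came from a separate mouse, so the p-values below measure the spread between libraries, which may be technical in part.

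A dividing cell copies its DNA once and then separates the copies. The MCM2 to MCM7 proteins form the helicase that opens the DNA in S phase, PCNA holds the polymerases on it, and ribonucleotide reductase supplies the nucleotides; in mitosis cyclin-dependent kinase 1 with its cyclins starts chromosome condensation and spindle assembly, and the anaphase-promoting complex ends it by marking cyclins and securin for destruction. In adult mice the spleen keeps red cell formation going alongside the bone marrow and holds dividing lymphocytes in its germinal centres, whereas circulating blood is made up largely of cells that have stopped dividing. Many mitotic genes are repressed outside G2 through a promoter element called the cell cycle homology region. Many replication genes are regulated through E2F sites.

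The 12 libraries fell into 2 kinds that cut across the labels. In 6 libraries the 10 globin genes took 48.9% to 56.1% of all counts, and in the other 6 they took 0.846% to 5.90%; these are called globin-rich and globin-poor below. A limit at 10%, 25% or 40% divides the libraries in the same way. The globin-rich libraries were KO blood 02 and 03, KO spleen 03, WT blood 01 and WT spleen 02 and 04. The globin-poor libraries were KO blood 04, KO spleen 01 and 04, WT blood 03 and 04 and WT spleen 01. Markers of red pulp macrophages, which live in the spleen and not in blood, followed the globin share and not the tissue label: their summed level was 21.1 to 63.6 CPM in globin-rich libraries and 547 to 873 CPM in globin-poor ones, where CPM are counts for every 1000000 (1 M) counts of a library, with globin left out. Vcam1, an adhesion molecule of these macrophages, had 0 to 1.72 CPM in globin-rich libraries and 197 to 411 CPM in globin-poor ones. These values go against the label of 3 blood-labelled and 3 spleen-labelled libraries, so the labels of these libraries may be wrong, and each blood or spleen value below holds for the labels only. The tissue named below is the labelled one, and results are given within each library kind as well as within each label. The globin-rich libraries held 9.32 to 12.1 M counts (4.09 to 5.83 M without globin) and the globin-poor ones 23.1 to 28.2 M (21.8 to 27.4 M without globin), so that 3 counts, the limit set by a count of 0, equal 0.515 to 0.733 CPM and 0.109 to 0.138 CPM. The targeted gene Myo1c had 150 to 200 CPM in KO blood and 128 to 170 CPM in KO spleen, against 163 to 219 CPM in WT blood and 58.5 to 180 CPM in WT spleen; these gene-level counts add up every form of Myo1c and so do not check the labels.

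The promoters of 33 of the 40 genes were matched in RefSeq (GRCm38.p6), as 250 bases before and 50 after the start of transcription; Mcm4, Tpx2, Ccne2, Lmnb1, Ccna2, Kif20a and Aurkb are not shown. The promoters of Ube2c (chr2:164769679-164769978, plus strand) and Nusap1 (chr2:119618048-119618347, plus strand) are shown because these genes were higher in globin-rich libraries while the rest of the mitotic genes were not. Those of Cdk1 (chr10:69352863-69353162, minus strand) and Ccnb2 (chr9:70421505-70421804, minus strand) are shown as other mitotic genes with a large and a small difference, and those of Mcm5 (chr8:75109259-75109558, plus strand) and Pcna (chr2:132253131-132253430, minus strand) as S phase genes. Each reads 5′ to 3′ on its gene's strand, and the capitals mark letters of 3 motifs searched on both strands: the cell cycle homology region (TTTGAA or TTCGAA), the CCAAT box (CCAAT) and the E2F site (TTTCCCGC, TTTCGCGC, TTTGCCGC or TTTGGCGC).
Ube2c promoter: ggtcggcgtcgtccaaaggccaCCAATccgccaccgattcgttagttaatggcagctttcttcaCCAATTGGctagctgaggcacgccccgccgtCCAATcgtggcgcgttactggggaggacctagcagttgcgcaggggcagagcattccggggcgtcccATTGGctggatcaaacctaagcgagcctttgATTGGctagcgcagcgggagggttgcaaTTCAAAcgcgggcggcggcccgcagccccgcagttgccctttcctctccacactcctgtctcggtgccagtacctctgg
Nusap1 promoter: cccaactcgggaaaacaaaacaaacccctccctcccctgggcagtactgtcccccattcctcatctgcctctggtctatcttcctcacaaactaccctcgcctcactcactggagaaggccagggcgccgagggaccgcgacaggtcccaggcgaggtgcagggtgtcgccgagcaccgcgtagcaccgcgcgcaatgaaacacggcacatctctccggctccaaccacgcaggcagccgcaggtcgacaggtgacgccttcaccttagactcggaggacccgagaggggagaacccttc
Cdk1 promoter: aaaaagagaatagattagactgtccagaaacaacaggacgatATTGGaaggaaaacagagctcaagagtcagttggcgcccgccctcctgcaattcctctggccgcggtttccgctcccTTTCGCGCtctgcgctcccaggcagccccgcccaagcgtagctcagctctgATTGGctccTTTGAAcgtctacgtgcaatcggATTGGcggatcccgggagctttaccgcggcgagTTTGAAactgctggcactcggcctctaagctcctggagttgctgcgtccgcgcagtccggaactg
Ccnb2 promoter: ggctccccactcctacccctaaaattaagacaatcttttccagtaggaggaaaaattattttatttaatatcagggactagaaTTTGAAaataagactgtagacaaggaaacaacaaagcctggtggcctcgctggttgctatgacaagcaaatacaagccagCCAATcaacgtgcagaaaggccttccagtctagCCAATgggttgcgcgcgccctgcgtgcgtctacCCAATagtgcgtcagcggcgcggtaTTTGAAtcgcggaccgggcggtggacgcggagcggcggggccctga
Mcm5 promoter: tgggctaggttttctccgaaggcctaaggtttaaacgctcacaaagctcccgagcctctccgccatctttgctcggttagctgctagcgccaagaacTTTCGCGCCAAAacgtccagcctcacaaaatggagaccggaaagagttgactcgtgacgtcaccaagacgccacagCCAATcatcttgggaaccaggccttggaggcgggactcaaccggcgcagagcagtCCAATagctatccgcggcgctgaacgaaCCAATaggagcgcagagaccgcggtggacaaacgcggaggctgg
Pcna promoter: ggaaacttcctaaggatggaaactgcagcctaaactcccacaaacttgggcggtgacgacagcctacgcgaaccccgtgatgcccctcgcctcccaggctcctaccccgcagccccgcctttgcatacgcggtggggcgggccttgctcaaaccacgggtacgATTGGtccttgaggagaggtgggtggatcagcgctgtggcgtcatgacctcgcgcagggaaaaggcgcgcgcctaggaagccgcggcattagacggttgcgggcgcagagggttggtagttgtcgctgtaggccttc

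The cell cycle homology region letters were found for 22 of the 33 genes (66.7%), against 19.2% of the 32851 promoters of the RefSeq table. Shares of the 33 are by gene and those of the whole table by promoter. Mcm7, which has 2 promoters, was counted once, with a match in either. They were found for 17 of 21 G2 and mitosis genes and for 3 of 10 S phase genes. CCAAT was found in 28 of 33 (84.8%, against 37.4% of all promoters) and the E2F letters in 6 of 33 (18.2%, against 2.26%), of which 4 were S phase genes and 1, Cdk1, was a G2 and mitosis gene. The Ube2c window holds a cell cycle homology region and 6 CCAAT matches on the 2 strands, while the Nusap1 window holds none of the 3 motifs. In 2 of the promoters, matches of different motifs share a base, and CCAAT read on one strand can overlap CCAAT read on the other, as in Ube2c. A match is a run of letters and was not tested as a site of binding.

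Globin-rich against globin-poor libraries was the largest contrast in these genes. Of the 40 genes, 37 were lower in globin-rich libraries and 2 were higher at an adjusted p under 0.05 (edgeR quasi-likelihood test on all 12 libraries, with genotype and tissue label as terms). Among all 16858 genes tested, 29.9% were called lower and 24.1% higher, and the median log2 fold change was -0.12, whereas the median of the 40 genes was -3.20. All 12 S phase genes were lower (median -3.02), as were 22 of 25 G2 and mitosis genes (median -3.85) and the 3 genes of no single phase (median -1.71). Ccne2, Cdk1, Ccnb1, Plk1, Bub1, Cdca8, Kif20a, Hmmr and Cenpf did not pass the filter on low counts within globin-rich libraries alone. They were tested here together with the globin-poor libraries, where they are high, so the direction of their calls was largely set by that filter. Scaled by library size alone, the medians were -4.16 for the 40 genes and -1.05 for all genes, so the changes are relative to a median of all genes that moves with the scaling. In these bulk libraries, fewer dividing cells and less RNA of these genes in each cell cannot be told apart. The share of counts from mitochondrial genes also moved with the library kind, at 2.69% to 3.51% of non-globin counts in globin-rich and 1.18% to 1.57% in globin-poor libraries, and its part in the result was not tested.

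**Figure D1:**
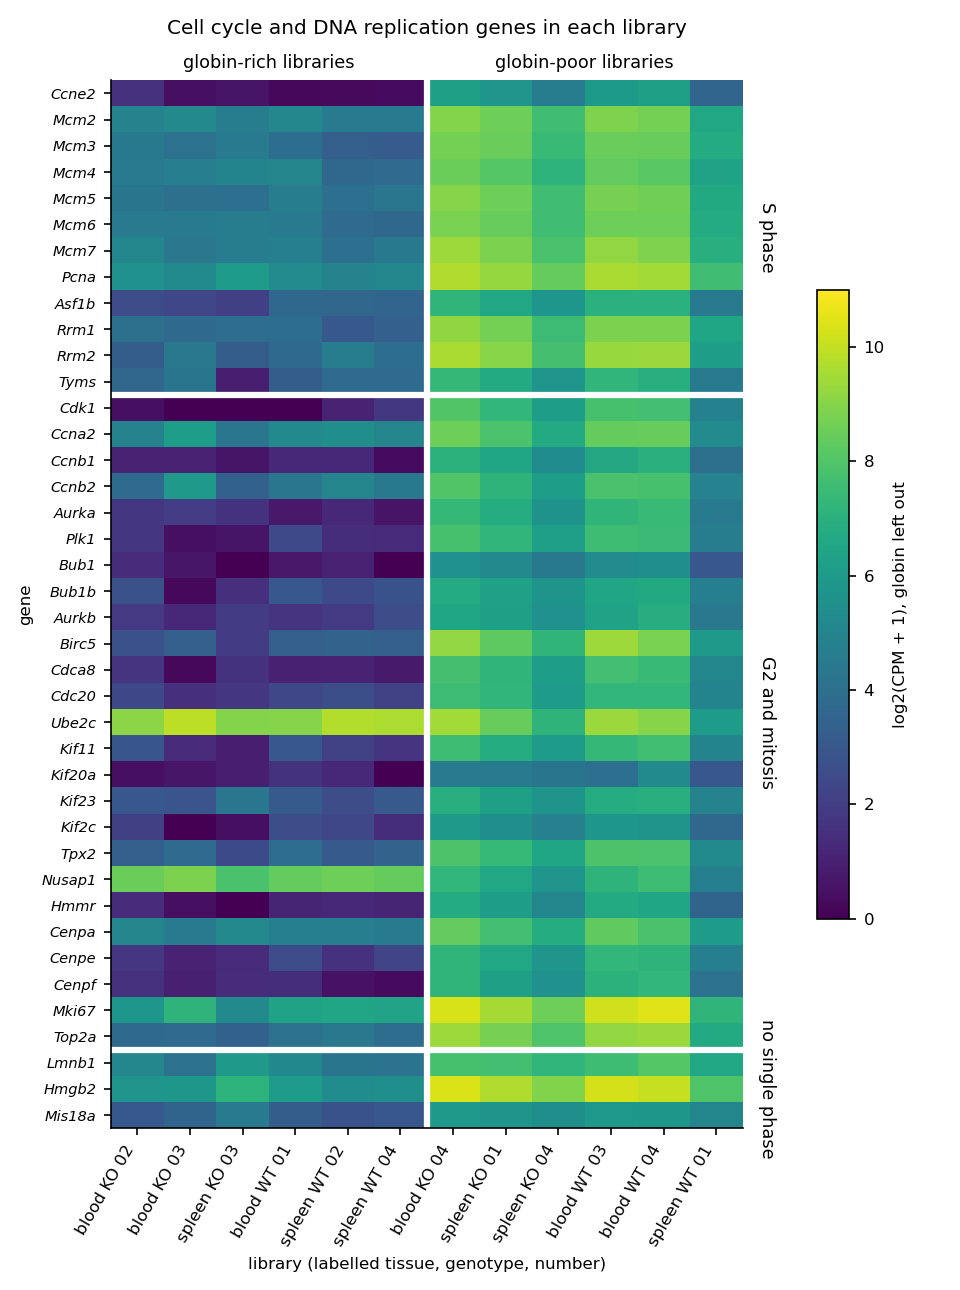
Level of each of the 40 genes (rows, grouped by phase) in each of the 12 libraries (columns), as log2(CPM + 1) with globin left out; the colour scale runs from 0 to 11. The 6 globin-rich libraries on the left are darker in nearly every row, and Ube2c and Nusap1 are the rows that stand out there.

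Among the S phase genes, cyclin E2, which starts S phase with its kinase partner, had the largest difference. Ccne2 had 0.172, 0.31 and 1.97 CPM (lowest, median and highest) in globin-rich libraries, against 11.0, 57.1 and 75.8 CPM in globin-poor ones, a log2 fold change of -5.78 ± 0.46 (SE; adjusted p = 2.16e-07, edgeR). The ranges do not come near each other, although the globin-rich values rest on few counts and the exons of Ccne2 share 609 bases with Ints8 on the opposite strand. The 6 helicase genes were all lower, with log2 fold changes between -3.25 (Mcm3) and -2.42 (Mcm4). Mcm7 had 15.0, 22.7 and 32.0 CPM in globin-rich libraries, against 121, 463 and 678 CPM in globin-poor ones (-3.11 ± 0.363, adjusted p = 1.45e-05, edgeR). The 6 subunits work in equal numbers in 1 ring, and none of the 6 overlapped between the library kinds.

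Pcna, the sliding clamp, had 29.6, 38.2 and 64.5 CPM in globin-rich libraries, against 197, 665 and 830 CPM in globin-poor ones (-2.72 ± 0.346, adjusted p = 2.51e-05, edgeR). Asf1b, a histone chaperone that hands new histones to the fork, was lower as well, at -2.68. The nucleotide synthesis genes Rrm1 and Rrm2, the subunits of ribonucleotide reductase, and Tyms, thymidylate synthase, were lower at -3.80, -3.83 and -2.06. Rrm2 had 8.58, 13.8 and 23.5 CPM in globin-rich libraries, against 67.8, 577 and 778 CPM in globin-poor ones (SE 0.667, adjusted p = 0.000524, edgeR). The spread of Rrm2 within the globin-poor libraries, from 67.8 to 778 CPM, was wider than the gap between the highest globin-rich and the lowest globin-poor value.

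The cyclins and their kinase differed in how far they were lower. Cdk1, the kinase that drives entry into mitosis, was not detected in 3 of the 6 globin-rich libraries and reached 2.44 CPM in the others, against 27.1, 183 and 260 CPM in globin-poor libraries (-7.05 ± 0.915, adjusted p = 6.41e-05, edgeR). Leaving out 1 library at a time gave -8.66 (without WT spleen 04) to -6.55 for Cdk1. Cyclin B1, its main partner, was lower by a similar order (Ccnb1, -5.56). Cyclin A2, which acts in S phase and G2, had 19.2, 34.3 and 69.7 CPM in globin-rich libraries, against 38.4, 287 and 380 CPM in globin-poor ones, and these ranges overlapped (Ccna2, -1.41 ± 0.53, adjusted p = 0.0411, edgeR). Its call is lost under DESeq2 size factors in edgeR (-1.32), with libraries of 1 number as a block (-1.65), with globin left out before TMM scaling (-1.34) and without any 1 of 7 libraries (-1.13 to -1.39). Cyclin B2 had 9.69, 19.7 and 59.7 CPM in globin-rich libraries, against 28.4, 181 and 257 CPM in globin-poor ones, and was the only 1 of the 40 genes that did not pass the test (Ccnb2, -1.33 ± 0.597, adjusted p = 0.0799, edgeR); it passed under 7 of the alternatives. Among the 6 globin-rich libraries, KO blood 03 had the highest value of both Ccna2 and Ccnb2.

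The mitotic kinases and checkpoint genes were all 4 lower, between -5.33 and -3.24 on the log2 scale. Plk1, polo-like kinase 1, had 0.376, 1.60 and 4.46 CPM in globin-rich libraries, against 23.9, 165 and 224 CPM in globin-poor ones (-5.33 ± 0.592, adjusted p = 2.01e-05, edgeR). The checkpoint kinase genes Bub1 and Bub1b were lower at -4.81 and -3.24, and Aurora kinase A at -5.16. In the chromosomal passenger complex, which corrects attachments of chromosomes to the spindle, Cdca8, Birc5 and Aurkb were lower at -5.91, -4.40 and -3.66. Birc5 (survivin) had 2.74, 9.07 and 10.4 CPM in globin-rich libraries, against 59.3, 373 and 665 CPM in globin-poor ones (SE 0.632, adjusted p = 0.000133, edgeR).

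The motors and the kinetochore genes went the same way. The 4 kinesin genes were lower, from -4.17 (Kif11) to -2.20 (Kif23). Kif11, the motor that pushes the spindle poles apart, had 0.914, 2.84 and 6.86 CPM in globin-rich libraries, against 29.8, 136 and 205 CPM in globin-poor ones (SE 0.459, adjusted p = 1.41e-05, edgeR). Cenpf and Cenpe, which act at the outer kinetochore, were lower at -5.47 and -4.30. The centromeric histone gene Cenpa had 21.5, 25.5 and 35.3 CPM in globin-rich libraries, against 67.2, 220 and 325 CPM in globin-poor ones, a smaller difference (-1.84 ± 0.373, adjusted p = 0.00121, edgeR). Top2a, which untangles DNA, was lower at -3.85. Mki67, which coats mitotic chromosomes and is the usual marker of cycling cells, had 37.1, 81.6 and 142 CPM in globin-rich libraries, against 144, 948 and 1418 CPM in globin-poor ones (-2.12 ± 0.556, adjusted p = 0.00706, edgeR). The highest globin-rich and the lowest globin-poor Mki67 values lie next to each other.

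The 3 genes of no single phase were lower as well. Hmgb2, a DNA-bending chromatin protein, had 40.3, 54.4 and 135 CPM in globin-rich libraries, against 249, 940 and 1320 CPM in globin-poor ones (-2.64 ± 0.441, adjusted p = 0.0003, edgeR). Lmnb1, a lamin of the nuclear envelope, and Mis18a, which prepares centromeres for new CENPA, were lower at -1.71 and -1.33.

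Ube2c and Nusap1 were the exceptions. Ube2c encodes the ubiquitin-conjugating enzyme of the anaphase-promoting complex; it had 496, 671 and 952 CPM in globin-rich libraries, against 65.1, 432 and 710 CPM in globin-poor ones. The fitted change was 2.07 ± 0.583 on the log2 scale (4.19-fold, adjusted p = 0.0104, edgeR), but the ranges overlapped, and the call is lost when libraries are scaled by size alone (1.01) and when the replicate number enters as a block (1.75). Nusap1 encodes a microtubule-binding protein of the spindle. It had 229, 355 and 451 CPM in globin-rich libraries, against 25.8, 116 and 188 CPM in globin-poor ones, without overlap (2.91 ± 0.432, 7.51-fold, adjusted p = 0.00013, edgeR). Nusap1 was called under every alternative of this comparison, between 1.85 and 3.09. In this contrast, 36 of the 40 genes were lower in every globin-rich library than in every globin-poor one. Of the 16849 non-globin genes tested, 45.0% were. Nusap1 was higher in every one, against 3.18% of those genes.

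**Figure D2:**
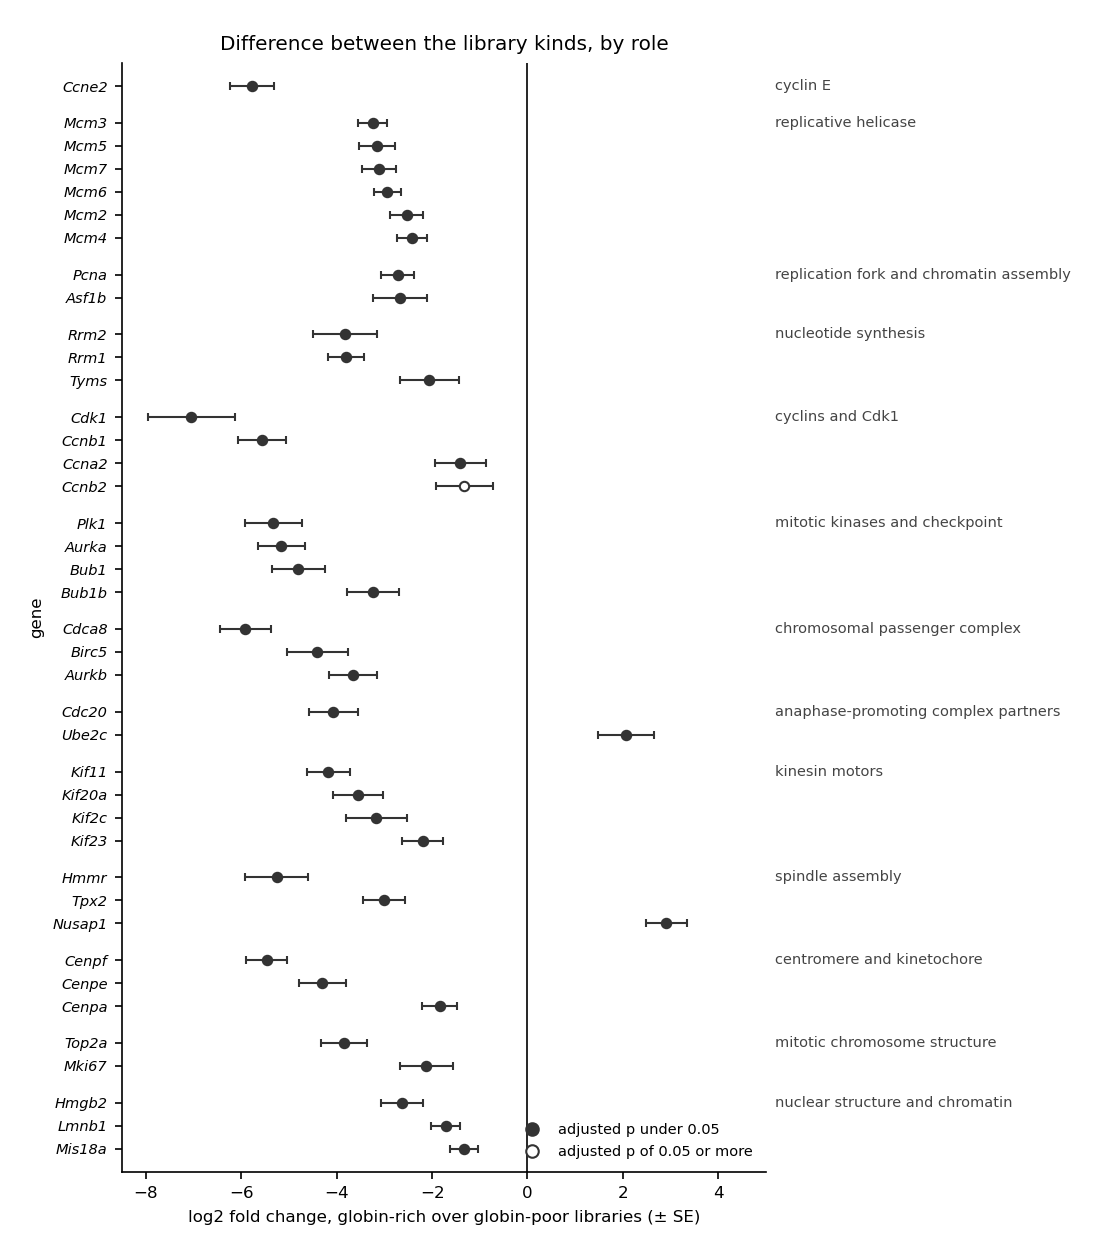
Log2 fold change of each gene, globin-rich over globin-poor libraries, with its standard error, grouped by role; filled points passed the edgeR test at an adjusted p under 0.05. All points but Ube2c (2.07) and Nusap1 (2.91) lie below 0, and Ccnb2 is the open point.

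Within each library, both genes were also set against another gene of the same role. The ratios to Cdc20 and Tpx2 follow from the differences above and add no separate support. For each count of Cdc20, the activator that works on the same complex as Ube2c, there were 125 to 507 counts of Ube2c in globin-rich libraries, against 2.15 to 4.21 in globin-poor ones. For each count of Tpx2, a spindle assembly factor, there were 23.7 to 50.1 counts of Nusap1 in globin-rich libraries, against 0.563 to 0.792 in globin-poor ones. The ratio of Ube2c to Nusap1 counts was closer between the kinds, at 1.46 to 2.38 in globin-rich and 2.52 to 4.70 in globin-poor libraries. Both genes lie on chromosome 2 (GRCm38), Ube2c at chr2:164769898-164778822 and Nusap1 at chr2:119618298-119651244, both on the plus strand. The exons of Ube2c share 592 bases with Tnnc2 on the opposite strand, and Tnnc2 had 0 counts in every library. Those of Nusap1 share 172 bases with Oip5, which had 0.733 to 3.43 CPM in globin-rich libraries, against 2.60 to 33.6 CPM in globin-poor ones. In all, 10 of the 40 genes share exon bases with another gene, and since the strand setting of the counting is not given in the sources used here, reads in such bases may belong to either gene. Another 4 (Ccnb1, Ccnb2, Pcna and Tyms) have named pseudogenes that may share reads with them.

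Per exon length, the order of the genes differed between the library kinds. In globin-rich libraries Ube2c was first with 758 ± 206 TPM (counts per exon base, scaled to an equal total with globin left out; SD, n = 6) and Nusap1 second with 248 ± 51.7 TPM. Hmgb2, Pcna and Ccnb2 followed with 61.9 ± 31.4, 49.2 ± 14.4 and 47.3 ± 32.3 TPM, which do not differ beyond their spread. In globin-poor libraries Hmgb2 was first with 789 ± 390 TPM, then Pcna with 658 ± 290, Rrm2 with 474 ± 275, Ube2c with 428 ± 278 and Birc5 with 294 ± 190 TPM, again with neighbours inside each other's spread. Nusap1 was 26th there, with 74.1 ± 44.3 TPM. Cdk1 was 39th in globin-rich libraries with 0.374 ± 0.557 TPM, and 24th in globin-poor ones with 87.7 ± 50.8 TPM.

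Summed over the 40 genes, the level was 1330 to 2064 CPM in globin-rich libraries and 2304 to 13923 CPM in globin-poor ones, or 0.133% to 0.206% and 0.230% to 1.39% of non-globin counts. Ube2c and Nusap1 made up 54.5% to 71.1% of the globin-rich sums and 3.94% to 6.34% of the globin-poor sums. Without that pair the sums were 471 to 661 CPM in globin-rich libraries and 2213 to 13056 CPM in globin-poor ones. The ratio of the S phase sum to the G2 and mitosis sum was 0.114 to 0.265 in globin-rich libraries and 0.704 to 1.13 in globin-poor ones. Without the pair it was 0.643 to 1.50 in globin-rich libraries, which spans the 0.792 to 1.26 of the globin-poor ones. The pair was chosen because both genes were higher in globin-rich libraries. Leaving them out was bound to raise the ratio there, so no conclusion is drawn from that change.

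**Figure D3:**
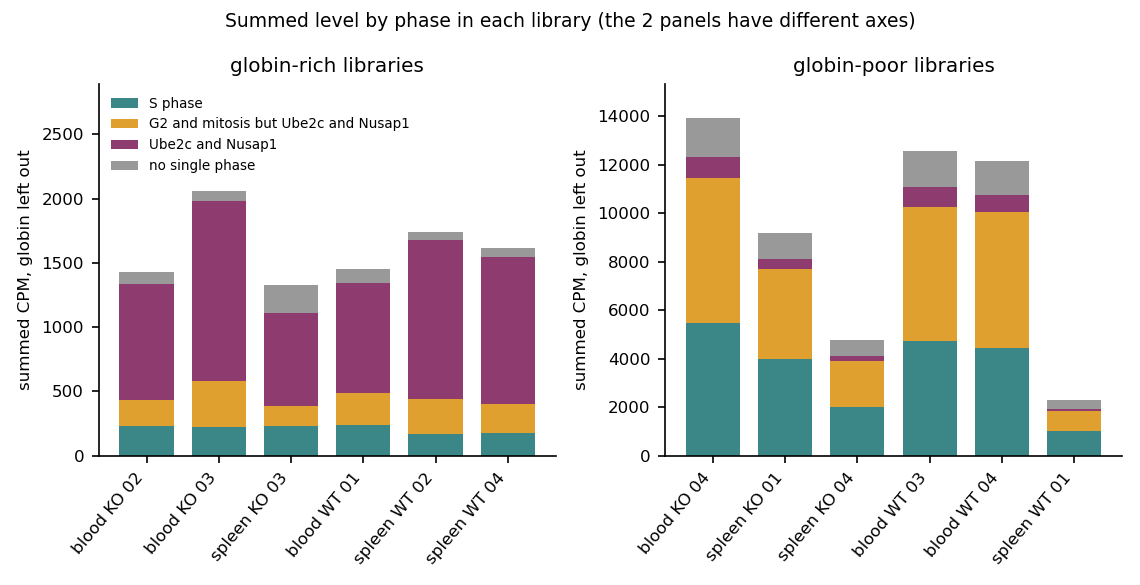
Summed CPM (globin left out) by phase in each library, with Ube2c and Nusap1 stacked as a separate block; the left panel holds the globin-rich and the right panel the globin-poor libraries, on different axes that both start at 0. The pair fills more than any other block in every globin-rich bar and little of the globin-poor bars, and the globin-poor bars run from 2304 to 13923 CPM.

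Other genes of the same pathways mostly moved in the same way between the library kinds. Their lists, outside the 40, were chosen with earlier results of these data known. Of 40 further replication genes, 39 were lower in globin-rich libraries and 0 higher (median log2 fold change -2.52), among them Gmnn, the licensing inhibitor geminin (-4.44 ± 0.399); Dnmt1 was not called (0.16). Of 50 further mitosis genes, 45 were lower and 2 higher (median -3.41). The condensin gene Ncapg2 was lower at -4.71. The 2 higher ones were Pttg1, which encodes securin, and Cdc25b, the phosphatase that activates cyclin-dependent kinases. Pttg1 had 226 to 326 CPM in globin-rich libraries, against 38.8 to 78.7 CPM in globin-poor ones (3.46 ± 0.245, adjusted p = 5.06e-08, edgeR). Cdc25b had 810 to 1402 CPM in globin-rich libraries, against 93.3 to 395 CPM in globin-poor ones (3.28 ± 0.397, adjusted p = 1.3e-05, edgeR). Of 27 cell cycle regulators, 19 were lower, among them Cdk4 (-2.34) and Ccnd1 (-3.25), which drive the G1 phase. The 4 higher ones were E2f2 (2.70), Fzr1 (1.50), the activator of the anaphase-promoting complex after mitosis, and the retinoblastoma family genes Rb1 (1.35) and Rbl2 (1.06). Of 10 cell cycle inhibitors, 2 were higher (Cdkn1b, 0.73, and Tob1, 0.62) and 3 lower (Cdkn1a, -1.52, Cdkn1c, -2.63, and Cdkn2c, -1.76). Set against the 24.1% of all genes called higher and the 29.9% called lower, the share of lower calls was above the background in the lists of replication genes, mitosis genes and regulators. Within globin-rich libraries alone, 36 of the 40 replication genes, 29 of the 50 mitosis genes and 23 of the 27 regulators passed the filter on low counts. The direction of the calls of the rest was largely set by that filter, so these lists are no separate support.

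Markers of red cell precursors moved with the library kind too, in both directions. Of 10 erythroblast markers, 3 were higher in globin-rich libraries, among them Alas2 (7.38), and 7 were lower, among them Klf1 (-5.88). Alas2, the first enzyme of heme synthesis, made up 40555 to 57699 CPM of a summed erythroblast level of 41552 to 60103 CPM in globin-rich libraries. The 6 platelet markers summed to 1953 to 6010 CPM in globin-rich libraries and 171 to 302 CPM in globin-poor ones. The T cell markers summed to 242 to 424 CPM in globin-rich libraries and 437 to 1017 CPM in globin-poor ones, and the germinal centre B cell markers to 48.6 to 108 CPM and 44.7 to 138 CPM. In the fit used for the 40 genes, 1 of 6 T cell markers was higher in globin-rich libraries and 0 lower (median 0.0017), and 1 of 8 germinal centre B cell markers was higher and 1 lower (median -0.53). The B cell markers summed to 944 to 2404 CPM in globin-rich libraries and 2457 to 4764 CPM in globin-poor ones, without overlap. In the fit, however, 2 of these 6 markers were called higher in globin-rich libraries and 1 lower (median 0.34). Markers of 4 other cell types were also lower in globin-rich libraries without overlap of their sums. The early neutrophil markers summed to 1.31 to 7.18 CPM in globin-rich libraries and 24.2 to 127 CPM in globin-poor ones (5 of 5 lower). The progenitor markers summed to 19.3 to 33.5 CPM and 137 to 169 CPM (4 of 5 lower, 1 higher). The plasma cell markers summed to 108 to 172 CPM in globin-rich libraries and 643 to 2249 CPM in globin-poor ones (4 of 8 lower), and those of stroma and endothelium to 121 to 209 CPM and 433 to 1039 CPM (5 of 6 lower, 1 higher). Within globin-rich libraries alone, the filter on low counts was passed by 2 of 5 early neutrophil and 4 of 5 progenitor markers. It was passed by 6 of 8 plasma cell markers and 2 of 6 of stroma and endothelium. The part of these cells in the difference was not tested.

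Knockout and wild type were then compared within each tissue label. In blood, 0 of the 40 genes and 0 of 14939 genes tested (0%) passed an adjusted p of 0.05 in edgeR, and none by DESeq2 or limma-voom; 24 of all genes, none of them among the 40, had an unadjusted p under 0.05. The median log2 fold change of the 40 genes, KO over WT, was -0.63, with 2 of 40 above 0. The summed level was 1432, 2064 and 13923 CPM in KO blood, against 1453, 12577 and 12161 CPM in WT blood, or 5806 ± 7036 and 8731 ± 6306 CPM (SD, n = 3 each; exact two-sided permutation p = 0.9; the smallest p that 3 against 3 allows is 0.1). The high values are those of the globin-poor libraries, of which KO blood has 1 and WT blood 2. With the library kind as a term the median was 0.26, and without KO blood 04 it was -3.49. None of the 40 genes was higher or lower in all 3 KO blood libraries than in all 3 WT ones, against 0.127% and 3.52% of all genes.

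In spleen, 0 of the 40 genes and 0 of 15362 genes tested (0%) passed in edgeR, DESeq2 or limma-voom; 370 of all genes and 5 of the 40 had an unadjusted p under 0.05 in edgeR. The median of the 40 genes was 1.65, KO over WT, with 38 of 40 above 0; it was 0.87 without KO spleen 01 and 2.19 without KO spleen 03. The summed level was 9204, 1330 and 4786 CPM in KO spleen, against 2304, 1740 and 1617 CPM in WT spleen, or 5107 ± 3947 and 1887 ± 367 CPM (SD, n = 3 each; exact two-sided permutation p = 0.4). The lowest KO spleen sum was below every WT spleen sum, and it was the globin-rich KO library. KO spleen has 2 globin-poor libraries and WT spleen 1, and with the library kind as a term the median was 0.69. None of the 40 genes was higher or lower in all 3 KO spleen libraries, against 1.37% and 1.11% of all genes. The means of Ube2c and Nusap1 lay the other way round from those of the whole list in both labels: summed, the pair had 1058 ± 299 CPM in KO blood and 786 ± 75.2 CPM in WT blood (exact two-sided permutation p = 0.1, n = 3 each), and 453 ± 265 CPM in KO spleen and 825 ± 637 CPM in WT spleen (exact two-sided permutation p = 0.4, n = 3 each). Every KO blood library lay above every WT blood library for the pair, with the unequal number of globin-rich libraries beside it. The pair was chosen from the contrast of library kinds, and neither gene separated the genotypes alone. Ube2c had 536, 952 and 710 CPM in KO blood, against 514, 657 and 518 CPM in WT blood. Nusap1 had 368, 451 and 156 CPM in KO blood, against 342, 140 and 188 CPM in WT blood.

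Within the library kinds the genotypes are balanced, with 3 KO and 3 WT libraries in each. These comparisons use the same libraries as those within labels and are not independent of them. In globin-rich libraries, 31 of the 40 genes passed the filter on low counts, and 0 of them and 0 of 11728 genes tested (0%) passed an adjusted p of 0.05 in edgeR. At an unadjusted p under 0.05, edgeR gave 799 genes, 4 of them among the 40; at the adjusted threshold DESeq2 called 31 genes and limma-voom 0. With a replicate block edgeR called 2 of the 40 (Rrm2 and Ccnb2) and 50 genes in all, and without KO blood 02 it called 2 (Asf1b and Kif2c) and 483. The 9 genes not tested there (Ccne2, Cdk1, Ccnb1, Plk1, Bub1, Cdca8, Kif20a, Hmmr and Cenpf) are all but one mitotic genes. The summed level was 1432, 2064 and 1330 CPM in KO libraries (blood 02, blood 03 and spleen 03), against 1453, 1740 and 1617 CPM in WT libraries (blood 01, spleen 02 and spleen 04), or 1608 ± 397 and 1603 ± 144 CPM (SD, n = 3 each; exact two-sided permutation p = 1). The KO values lie on both sides of the WT values.

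Asf1b was the gene of the 40 with the smallest p in globin-rich libraries. It had 4.65, 4.13 and 3.29 CPM in KO libraries, against 11.7, 11.3 and 11.0 CPM in WT libraries. Every KO value was below every WT value, and the spread within each genotype was small beside the gap, but the difference did not pass the test over all genes (-1.83 ± 0.353, unadjusted p = 0.0004, adjusted p = 0.666, edgeR). It passed with no filter on low counts (adjusted p = 0.0187), under DESeq2 (adjusted p = 0.0305) and without KO blood 02 (adjusted p = 0.0412). In globin-poor libraries Asf1b had 146, 93.8 and 53.3 CPM in KO libraries (blood 04, spleen 01 and spleen 04), against 131, 128 and 21.7 CPM in WT libraries (blood 03, blood 04 and spleen 01), and there the groups overlapped.

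Another 4 of the 40 did not overlap between genotypes in globin-rich libraries. Ccne2, Mcm3 and Aurka were higher in all 3 KO libraries, and Top2a, with Asf1b, was lower in all 3. Of the 11721 non-globin genes that passed the filter on low counts, 8.30% were higher and 2.75% lower. Beside these shares, 3 of the 40 higher and 2 lower are not read as a result about the 40 genes as a set. Ccne2 did not pass that filter. Mcm3 had 20.6, 16.7 and 23.0 CPM in KO libraries, against 14.8, 8.92 and 8.06 CPM in WT libraries (0.62 ± 0.233, unadjusted p = 0.0243, adjusted p = 0.719, edgeR). Top2a had 12.5, 13.3 and 9.69 CPM in KO libraries, against 16.1, 20.2 and 14.4 CPM in WT libraries (-0.86 ± 0.337, adjusted p = 0.719, edgeR). Ccne2 rested on 11, 2 and 3 counts in KO libraries, against 1, 1 and 1 in WT libraries. Aurka rested on 13, 16 and 11 counts in KO libraries, against 4, 6 and 2 in WT libraries. Mcm5, the other gene with an unadjusted p under 0.05, had 18.2, 15.8 and 15.2 CPM in KO libraries, against 23.3, 15.2 and 18.8 CPM in WT libraries, which overlap. Mcm3 and Mcm5, subunits of 1 helicase, thus had fitted changes of opposite sign (0.62 and -0.53), and neither passed the test.

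The genes with the highest levels showed no separation by genotype in globin-rich libraries. Ube2c had 536, 952 and 496 CPM in KO libraries, against 514, 855 and 807 CPM in WT libraries. Nusap1 had 368, 451 and 229 CPM in KO libraries, against 342, 381 and 339 CPM in WT libraries. Mki67 had 54.2, 142 and 37.1 CPM in KO libraries, against 79.4, 91.2 and 83.8 CPM in WT libraries. In all 3, KO blood 03 had the highest and KO spleen 03 the lowest value of the 6 libraries, so the KO libraries bracketed the WT ones. The S phase sum was 231 ± 3.36 CPM in KO libraries and 195 ± 36.8 CPM in WT libraries, and the G2 and mitosis sum 1246 ± 453 and 1328 ± 202 CPM (SD, n = 3 each; exact two-sided permutation p = 0.4 and 0.8).

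In globin-poor libraries, all 40 genes were tested, and 0 of them and 0 of 16422 genes (0%) passed in edgeR; 138 genes, none of the 40, had an unadjusted p under 0.05, and DESeq2 called 5 genes and limma-voom 0. The median of the 40 genes was 0.04, KO over WT, with 24 above 0. The summed level was 13923, 9204 and 4786 CPM in KO libraries (blood 04, spleen 01 and spleen 04), against 12577, 12161 and 2304 CPM in WT libraries (blood 03, blood 04 and spleen 01), or 9304 ± 4569 and 9014 ± 5815 CPM (SD, n = 3 each; exact two-sided permutation p = 1). Within each genotype the blood-labelled libraries were the high ones, and WT had 2 of them and KO 1. With the tissue label as a term the median was 1.00 and all 40 genes lay above 0, whereas without WT spleen 01 the median was -0.44 and none did. The 4 genes with the smallest p, Mcm3 (0.20), Nusap1 (-0.25), Mcm5 (0.21) and Rrm1 (0.21), had an adjusted p of 1 in edgeR. Mcm3 had 416, 359 and 171 CPM in KO libraries, against 356, 344 and 108 CPM in WT libraries. Mcm5 had 505, 380 and 194 CPM in KO libraries, against 426, 388 and 100 CPM in WT libraries. Rrm1 had 583, 414 and 188 CPM in KO libraries, against 459, 458 and 89.4 CPM in WT libraries. Nusap1 had 156, 92.8 and 52.4 CPM in KO libraries, against 140, 188 and 25.8 CPM in WT libraries. For each of the 4 the genotypes overlapped, as for all 40 genes, against 2.18% of all genes higher and 1.20% lower in every KO library.

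**Figure D4:**
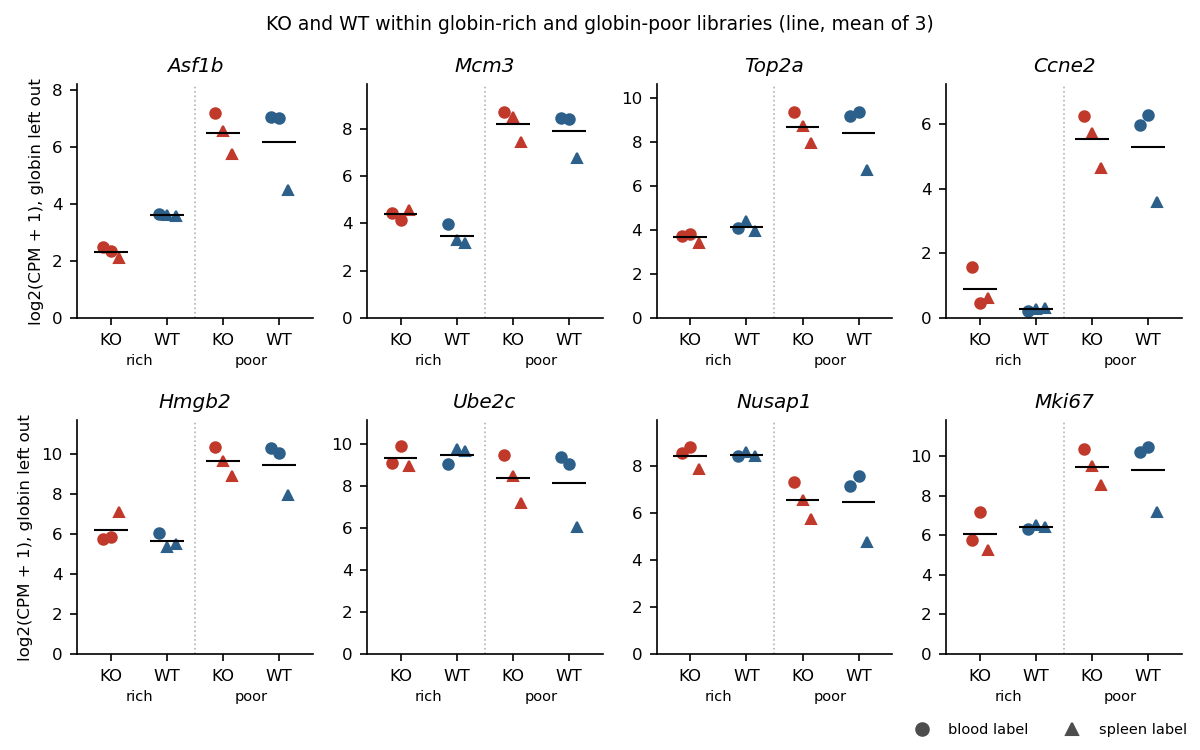
Level of 8 of the genes as log2(CPM + 1), globin left out, in the 3 KO and 3 WT libraries of each library kind; circles are blood-labelled and triangles spleen-labelled libraries, and lines are means of 3. Asf1b separates the genotypes in globin-rich libraries, with KO between 3.29 and 4.65 CPM and WT between 11.0 and 11.7 CPM, and in globin-poor libraries the triangles lie below the circles of the same genotype for every gene shown.

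Over all 12 libraries, with library kind and label as terms, 0 of the 40 genes and 0 of 16858 (0%) differed between KO and WT in edgeR (753 genes at an unadjusted p under 0.05; DESeq2 1, limma-voom 0), and the median of the 40 was 0.09. The test of whether the genotype difference itself differed between the library kinds called 0 of the 40 and 0 of 18118 genes (0%; 1463 at an unadjusted p under 0.05; DESeq2 59). The smallest p of the 40 was that of Plk1 (-3.01, unadjusted p = 0.00753, adjusted p = 0.585, edgeR). The same test between the tissue labels called 0 of the 40 and 0 of 18118 genes (0%; 252 at an unadjusted p under 0.05; DESeq2 4), with Cenpf first (2.10, unadjusted p = 0.0027, adjusted p = 1, edgeR).

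The tissue label, with genotype and library kind as terms, gave a median log2 fold change of 0.83, blood over spleen, and all 40 genes lay above 0. None of the 40 was called, against 0.0297% of all genes in edgeR. An unadjusted p under 0.05 was found for 16 of the 40, beside 1742 of all 16858 genes tested. Cenpf had the smallest adjusted p (1.94 ± 0.412, adjusted p = 0.142, edgeR). The number called depended on the method: DESeq2 called 2 of the 40 (Cenpf and Ccne2), limma-voom 16, edgeR without a filter on low counts 21 and edgeR with a replicate block 31.

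Within the globin-poor libraries the label was fitted without a genotype term, and the genotypes are not balanced between the labels there. The median was 1.47 with all 40 genes above 0. An unadjusted p under 0.05 was found for 35 of the 40, beside 3968 of all 16422 genes tested (edgeR). Of the 40, 0 were called, against 0.0731% of all genes. The smallest adjusted p was that of Kif23 (1.39 ± 0.343, adjusted p = 0.106, edgeR). In these 6 libraries, 37 of the 40 genes were higher in all 3 blood-labelled libraries than in all 3 spleen-labelled ones, against 9.13% of all genes, and 0 were lower, against 25.2%. The 3 that overlapped were Mcm3, Kif20a and Lmnb1. The median change was 1.53 for G2 and mitosis genes (0.815 to 1.98), 1.28 for S phase genes (1.02 to 1.55) and 0.796 for the genes of no single phase (0.695 to 1.46). Mki67 had 1305, 1173 and 1418 CPM in the blood-labelled libraries (KO 04, WT 03 and WT 04), against 722, 375 and 144 CPM in the spleen-labelled ones (KO 01, KO 04 and WT 01). Birc5 had 587, 665 and 437 CPM in the blood-labelled libraries, against 308, 145 and 59.3 CPM in the spleen-labelled ones. Pcna had 830, 768 and 719 CPM in the blood-labelled libraries, against 611, 333 and 197 CPM in the spleen-labelled ones. For all 3 every blood-labelled library lay above every spleen-labelled one, and WT spleen 01 was lowest. The ratio of S phase to G2 and mitosis sums without Ube2c and Nusap1 was 0.792 to 0.919 in the blood-labelled and 1.04 to 1.26 in the spleen-labelled globin-poor libraries.

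Whether the label difference itself differs between the library kinds was not tested. In globin-rich libraries the label, again fitted without a genotype term, gave a median of -0.14, with 13 of the 31 tested genes above 0. Of the 31, 0 were called, against 0.00853% of all genes (edgeR). Mcm2 was higher in all 3 blood-labelled libraries, with 29.5, 35.5 and 33.1 CPM against 24.3, 21.8 and 21.5 CPM in the spleen-labelled ones, beside 7.70% of all genes. Aurkb was lower in all 3, with 2.50, 1.31 and 2.23 CPM against 2.74, 2.61 and 5.13 CPM, beside 3.82%.

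Markers of red cell precursors, like the cell cycle genes, were higher in the blood-labelled than in the spleen-labelled globin-poor libraries. The 10 erythroblast markers summed to 6063, 6050 and 6744 CPM in the blood-labelled libraries (KO 04, WT 03 and WT 04), against 3544, 1580 and 522 CPM in the spleen-labelled ones (KO 01, KO 04 and WT 01), in the same order of libraries as the cell cycle sums for the spleen label. Among the blood-labelled libraries the orders differed, and WT 04 had the highest erythroblast but the lowest cell cycle sum. The cell cycle sum was 2.30, 2.08 and 1.80 times the erythroblast sum in the blood-labelled libraries and 2.60, 3.03 and 4.41 times in the spleen-labelled ones. The T cell markers ran the other way, at 461, 511 and 437 CPM in the blood-labelled and 615, 903 and 1017 CPM in the spleen-labelled libraries. The germinal centre B cell markers did so as well, at 57.5, 44.7 and 75.8 CPM in the blood-labelled and 78.9, 138 and 101 CPM in the spleen-labelled libraries. None of the 10 erythroblast markers was called for the label (median 0.97). The part of these cells in the label difference was not tested.

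**Figure D5:**
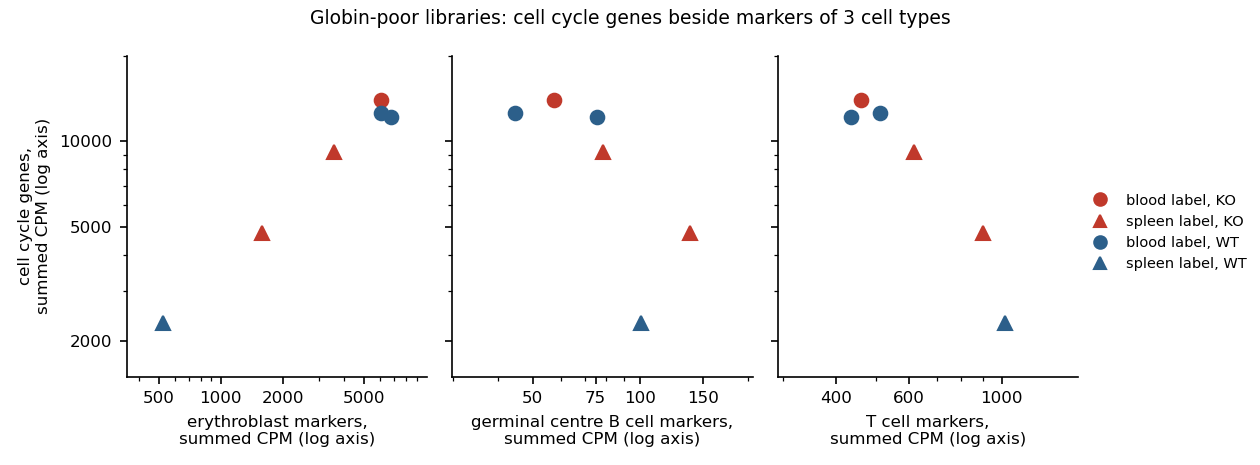
Summed CPM of the 40 cell cycle genes (vertical, log axis) against summed CPM of erythroblast, germinal centre B cell and T cell markers (horizontal, log axes) in the 6 globin-poor libraries; red is KO, blue WT, circles are blood-labelled and triangles spleen-labelled. The 3 spleen-labelled libraries lie below and to the left of the 3 blood-labelled ones in the erythroblast panel, with WT spleen 01 lowest (522 and 2304 CPM), and to the right of them in the other panels.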

How the data were processed

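RNA-seq libraries from blood and spleen of KO and WT mice were analysed, 3 for each genotype and label. The authors deposited whole-number read counts per Ensembl gene for each library. Per the submitters' processing notes, HISAT2 2.0.4 and HTSeq were used on GRCm38 (mm10), with Trimmomatic 0.36, SAMtools 0.1.19 and FastQC; the strand setting and the release of the annotation are not given in the sources used here. Of 46603 gene identifiers, 46091 were matched to symbols, positions and exon lengths of GENCODE vM21.

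Levels are CPM computed after leaving out 10 globin genes; TPM used union exon lengths. Groups came from the labels, and library kind from a globin share over 25%. Comparisons were fitted to all genes with edgeR 4.0.16 (filterByExpr, TMM scaling, robust quasi-likelihood test, Benjamini-Hochberg adjustment, threshold 0.05) in R 4.3.3, with DESeq2 1.42.0 and limma-voom (limma 3.58.1) as alternatives; sums were compared with exact permutation tests (scipy 1.17.1). Standard errors (SE) of edgeR changes were computed from the log2 fold change and the F statistic of the test. They are approximate where a group has counts near 0. The code was tested on simulated data. Other alternatives were library-size scaling, TMM with globin left out, no filter, a replicate block, added terms for kind or label and leaving out each library. The genes and lists were chosen with earlier results of these data known. A further 3 alternatives (the label within each library kind, and sums without Ube2c and Nusap1) were chosen after seeing the data. Values by library are given for the gene with the highest mean CPM in each role, for genes called in a genotype or interaction fit and for the 4 genes with the smallest p between genotypes in each library kind; other genes named outside that rule were chosen after their values were seen. Of the marker and pathway lists, genes with the smallest p between library kinds or on which a result turns are named; some are not reported here. No pair of libraries agreed within sampling noise (smallest chi-square per degree of freedom 7.17). Intervals set by a count of 0 cover counting error only.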

Additional observations from a re-analysis of the deposited data

Results flagged for a closer look

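Among the 6 globin-rich libraries, 3 of the values examined stood far from the others. Their gap to the nearest library took a larger part of the whole range than Dixon's 95% limit for 6 values. The summed level of the 3 genes of no single phase was 217 CPM in KO spleen 03, against 64.4 to 108 CPM in the others. Hmgb2 was 135 CPM in the same library, against 40.3 to 65.5 CPM, and it makes up most of that sum. Ccne2 was 1.97 CPM in KO blood 02, against 0.172 to 0.548 CPM, on 11 counts against 1 to 3. In all, 54 sets of 6 libraries were examined and 3 stood out in this way; chance flags about 1 in 20.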

How the results depend on the processing

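Of 997 values of 60 results recomputed under alternatives, 905 kept their direction and their side of the threshold or their size, 17 reversed, and 34 results changed under none of those run. Between library kinds, no filter gave 14140 genes called, and library-size scaling moved the median of the 40 genes to -4.16.

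KO against WT in globin-rich libraries gave 1 gene of the 40 called (121 of all genes) without a filter and 1 (31) under DESeq2; the median was -0.026 with library-size scaling and -0.51 under limma-voom. In globin-poor libraries DESeq2 called 5 genes, and over all libraries no filter gave 55 and DESeq2 1. For the label, the calls among the 40 were 21 without a filter, 2 under DESeq2 and 16 under limma-voom (449, 405 and 649 of all genes), with 12 and 1 of all genes in globin-poor and globin-rich libraries alone; the median was 1.45 under limma-voom, 1.47 in globin-poor and -0.14 in globin-rich libraries. The genotype by kind test gave 4 of the 40 (98 of all genes) without a filter and 59 genes under DESeq2; the genotype by label test gave 1 gene with library-size scaling, 9 without a filter and 4 under DESeq2, with a median of 1.20 under limma-voom. Nusap1 in globin-poor libraries (-0.25) turned to 0.030 under limma-voom and 0.79 with the label as a term. The log2 ratio of summed levels in globin-rich libraries (0.0046) turned to -0.19 with TMM scaling and -0.095 as a mean of log2(CPM + 1). The causes were not tested.

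Same-numbered libraries had correlations of -0.75 to 0.75, positive in the 4 pairs of 1 library kind (0.53 to 0.75) and negative in the 4 pairs of different kinds. The labels do not say what a number marks, and these values do not show whether it marks a mouse or litter, so the numbers were not used as pairs. With the number as a block, 2 of the 40 genes (Rrm2 and Ccnb2) and 50 of all genes were called between genotypes in globin-rich libraries, 31 and 678 for the label (median 1.24), and 3 genes for genotype by label; the genotype by kind median was -2.32 and Nusap1 in globin-poor libraries was 0.28.

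Leaving out 1 library at a time gave KO against WT medians of -3.49 to -0.11 in blood, 0.87 to 2.19 in spleen and -0.77 to -0.10 in globin-rich libraries, with 0 to 2 of the 40 and 0 to 483 of all genes called in the last (483 without KO blood 02). The label gave 3 to 13 genes, and genotype by kind 0 to 47 (47 without KO blood 02) with medians of -2.61 to -0.60; genotype by label medians were -1.31 to 1.34. In globin-poor libraries Mcm3 ranged from -0.21 to 0.54, Nusap1 from -0.85 to 0.21, Mcm5 from -0.24 to 0.62 and Rrm1 from -0.30 to 0.59; the log2 ratios of sums ranged from -0.22 to 0.12 in globin-rich and -0.41 to 0.36 in globin-poor libraries. Depth limits the globin-rich libraries most, where 5 to 14 of the 40 genes had under 10 counts in a library.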
